A study of Homo sapiens with 24 samples.

Results

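The 4 arrays described here carry the label LNCaP. A pair was hybridised with RNA from cells given 0.5 µM I-BET762 (GSK525762A, the name the labels use) for 24 hours, and the other pair with RNA from cells given DMSO vehicle for 24 hours. They are 4 of the 24 arrays of a study that profiled LNCaP, VCaP, PC3 and NCI-H660 prostate cancer cells with vehicle, 0.5 µM or 10 µM I-BET762. Each group held 2 independent biological replicates, so n = 2 for every mean below, and each cell line was used without any engineered change. A gene was included when its mean signal, on an array scale set to a target of 500, reached a floor of 100 in either group. That held for 11871 of the 19775 genes named on the array, of which 10791 lay over the floor in both groups and 1080 in only 1 of them. At the edge of the floor, H3C8 fell just outside with a higher group mean of 99.98 and HARBI1 just inside with 100.02.

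LNCaP is an established line from a lymph node metastasis of prostate cancer that depends on androgen for growth. The label carries a caveat. ERG, the ETS factor that the TMPRSS2-ERG fusion places under an androgen-driven promoter in VCaP, had signals of 2866.8 to 7084.5 on the 6 arrays labelled LNCaP and 5.9 to 28.3 on the 6 labelled VCaP. The reverse held for ETV1, an ETS gene that is rearranged in LNCaP, with signals of 14.5 to 90.3 on arrays labelled LNCaP and 191.7 to 407.8 on those labelled VCaP. The cells are therefore called the arrays labelled LNCaP throughout, and every value holds for the arrays so labelled. I-BET762 did not move ERG past the test: its signal was 5996 and 5917 at 0.5 µM and 6884 and 7084 in vehicle (log2 change -0.23, SE 0.61, limma adjusted p = 0.888).

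BET proteins, among them BRD2 and BRD3, bind acetylated histones through bromodomains and help RNA polymerase II to pass into elongation by way of the kinase complex P-TEFb. I-BET762 occupies the bromodomains and releases the proteins from chromatin. MYC is the best known gene that falls when they are displaced, and HEXIM1, which holds P-TEFb inactive, is a widely used marker of BET inhibition that rises.

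Both markers moved in that way. HEXIM1 had 7750 and 7335 at 0.5 µM against 1826 and 1758 in vehicle, a log2 change of 2.07 (SE 0.12, limma adjusted p = 6.44e-07). MYC had 1732 and 1800 at 0.5 µM against 5270 and 5382 in vehicle, a log2 change of -1.59 (SE 0.10, limma adjusted p = 1.18e-06). In both genes the groups lay apart by far more than the replicates did.

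The arrays were of like quality. Median signals were 90.17 and 83.01 at 0.5 µM and 80.42 and 72.24 in vehicle, and 44.51% to 47.89% of probe sets reached 100. Replicates correlated at 0.982 in each group over measured probe sets, on the log2 scale. All 9 luminal prostate markers on the array lay over the floor in both groups, with summed signals of 80100 and 81750 at 0.5 µM and 84150 and 83070 in vehicle. Of 8 immune markers, PTPRC, CD3D, MS4A1, CSF1R, NKG7 and LYZ were under the floor in both groups. CD3E was over it in both, with 276.8 and 97.25 at 0.5 µM and 148.4 and 199.4 in vehicle. CD14 reached it in vehicle alone (mean 100.1). The 8 summed to 571.2 and 292.2 at 0.5 µM and 497.7 and 411.9 in vehicle. Of 12 fibroblast, muscle and endothelial markers, 9 were under the floor in both groups, among them COL1A1, DCN, KDR and CDH5. ACTA2 and PECAM1 were over it in both groups, and DES at 0.5 µM alone. Array signals do not tell less RNA per cell apart from fewer cells that make it.

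A probe set was called when its limma adjusted p was under 0.1 (Benjamini-Hochberg over 54613 probe sets), its fold change was over 2 and its mean reached 100 in either group. Of 26742 measured probe sets, 1161 were called higher at 0.5 µM (4.34%) and 1013 lower (3.79%). At the level of genes, 455 were called higher (3.83%) and 536 lower (4.52%). Dropping the fold criterion, 2063 genes rose (17.4%) and 1961 fell (16.5%), and below "passed" refers to this wider set, against which the gene lists are read. Falls reached further than rises. Among called genes measured in both groups, 38 were more than 4-fold lower and 14 more than 4-fold higher, and 5 against 1 passed 8-fold. Whether the balance tips up or down depends on the scaling. Centring each array on its median signal, which lowers every change by 0.18 on the log2 scale, gave 685 probe sets higher and 1482 lower, 31.6% higher where the deposited scaling gave 53.4%. For that reason the list counts that change sides under centring are given with it.

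**Figure D1:**
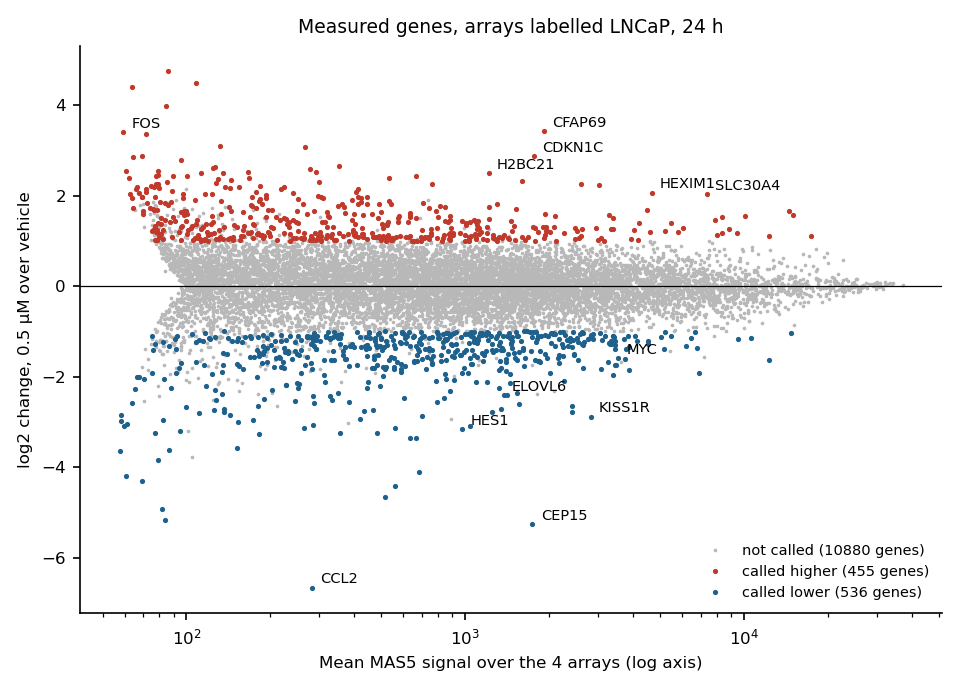
Each dot is 1 of the 11871 measured genes on the arrays labelled LNCaP, by its mean MAS5 signal over the 4 arrays (log axis) and its fitted log2 change, 0.5 µM over vehicle. Called genes are coloured (455 higher, 536 lower) and lie beyond a change of 1 in either direction. CCL2 and CEP15 had the lowest fitted changes among the labelled genes.

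The genes with the largest rises came from several unrelated functions. CFAP69, which encodes a protein of cilia and flagella, had 3246 and 3774 at 0.5 µM against 310.3 and 340.3 in vehicle, 10.8-fold (log2 change 3.43, SE 0.23, limma adjusted p = 1.77e-06). CDKN1C, an inhibitor of cyclin-dependent kinases, had 3014 and 3191 at 0.5 µM against 416.9 and 425.0 in vehicle (log2 change 2.88, SE 0.19, limma adjusted p = 1.79e-06). No array of either gene came near the other group. A pair of serine protease inhibitors was among the 10 largest rises. SERPINI1 (neuroserpin) had 886.8 and 904.3 at 0.5 µM against 204.5 and 139.8 in vehicle (log2 change 2.40), and SERPINE2 had 1179 and 1343 at 0.5 µM against 255.2 and 272.2 in vehicle (log2 change 2.26). MIA3, which helps load collagen for export at the endoplasmic reticulum, had 4927 and 5024 at 0.5 µM against 1010 and 1092 in vehicle (log2 change 2.24, limma adjusted p = 3.78e-07). NPTX2, a neuronal pentraxin, rose by 2.33 on the log2 scale with a wider error (SE 0.50, limma adjusted p = 0.00693). OSBPL6, of the oxysterol-binding proteins, rose by 2.30 (SE 0.21). The 3 others in this group are the histone genes H2BC21, H2BC4 and H2BC5, described below.

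Another 8 rises started under the floor in vehicle, so their folds are lower bounds against a signal of 100. YPEL1 had 636.8 and 577.3 at 0.5 µM against 80.48 and 115.0 in vehicle, at least 6.07-fold higher. FRMD5 was at least 4.95-fold higher and TEX14, needed for intercellular bridges of germ cells, at least 4.77-fold. CEMIP, which takes part in hyaluronan breakdown, had 454.6 and 495.2 at 0.5 µM against 98.97 and 63.46 in vehicle, at least 4.75-fold higher (limma adjusted p = 0.0143), a call lost without vehicle replicate 2. GSDME, a pore-forming gasdermin, had 401.1 and 367.7 at 0.5 µM against 121.6 and 70.08 in vehicle, at least 3.84-fold higher. KCTD21, PTGDS (prostaglandin D synthase) and NPNT (the matrix protein nephronectin) were at least 3.68-fold, 3.43-fold and 3.09-fold higher. The PTGDS probe set can bind related transcripts, its vehicle signals were 42.4 and 141.8, and 1 of 2 measured PTGDS probe sets passed. PTGDS lost its call when only the 6 arrays labelled LNCaP were fitted, and NPNT (limma adjusted p = 0.0843) whenever any 1 of the 4 arrays was left out, where its log2 change lay between 1.55 and 1.81. NPNT also lost it with the replicate block (1.68), median centring (1.5) and quantile normalization (1.57).

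Among the largest falls measured in both groups, HES1, the transcriptional repressor that Notch signalling induces, had 223.4 and 173.6 at 0.5 µM against 1690 and 1809 in vehicle, a log2 change of -3.15 with a small error (SE 0.14, limma adjusted p = 8.37e-08). MYBPC1, a myosin-binding protein, had 131.7 and 96.34 at 0.5 µM against 1209 and 1105 in vehicle (log2 change -3.36, limma adjusted p = 0.000104). DDC, the decarboxylase that makes dopamine and serotonin, had 102.8 and 137.0 at 0.5 µM against 1230 and 1197 in vehicle (log2 change -3.35, limma adjusted p = 0.000256). In these 3 genes vehicle arrays lay several times above both treated arrays. KISS1R, the receptor for kisspeptin, had 667.1 and 678.7 at 0.5 µM against 5175 and 4755 in vehicle (log2 change -2.88, SE 0.25, limma adjusted p = 8.8e-06). F12, coagulation factor XII, had 622.0 and 608.2 at 0.5 µM against 4253 and 4218 in vehicle (log2 change -2.78, limma adjusted p = 1.39e-05). AK5, an adenylate kinase, fell by 3.10 on the log2 scale, and SMAGP, a small membrane glycoprotein, by 2.87. SLC29A2, a nucleoside transporter, fell by 2.79, but of its 4 measured probe sets 2 passed lower and 1 passed higher. SYTL5, an effector of Rab27 in vesicle traffic, had a change of -3.14 with a standard error of 0.87 and lost its call without any 1 of the 4 arrays (-3.16 to -3.12) or with the 6 arrays labelled LNCaP alone. The same loss without any 1 array held for the defensin gene DEFB132 (log2 change -2.94, limma adjusted p = 0.0887, and -3.41 to -2.48 with 1 array left out).

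A further 8 falls ended under the floor at 0.5 µM. CEP15, a centrosomal protein, had 69.14 and 113.5 at 0.5 µM against 3582 and 3206 in vehicle, at least 33.9-fold lower (limma adjusted p = 0.002), on 1 of its 2 measured probe sets. ATP8B4, of the phospholipid flippases, was at least 10.7-fold lower, with 44.11 and 57.03 at 0.5 µM against 1016 and 1128 in vehicle. GHRHR, the receptor for growth hormone-releasing hormone, was at least 8.70-fold lower. The annexin gene ANXA10 was at least 6.41-fold lower, a call lost without 0.5 µM replicate 1, and UGT2B28, which glucuronidates androgens, at least 5.07-fold lower on a probe set that can bind related transcripts. The remaining 3 are chemokines.

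**Figure D2:**
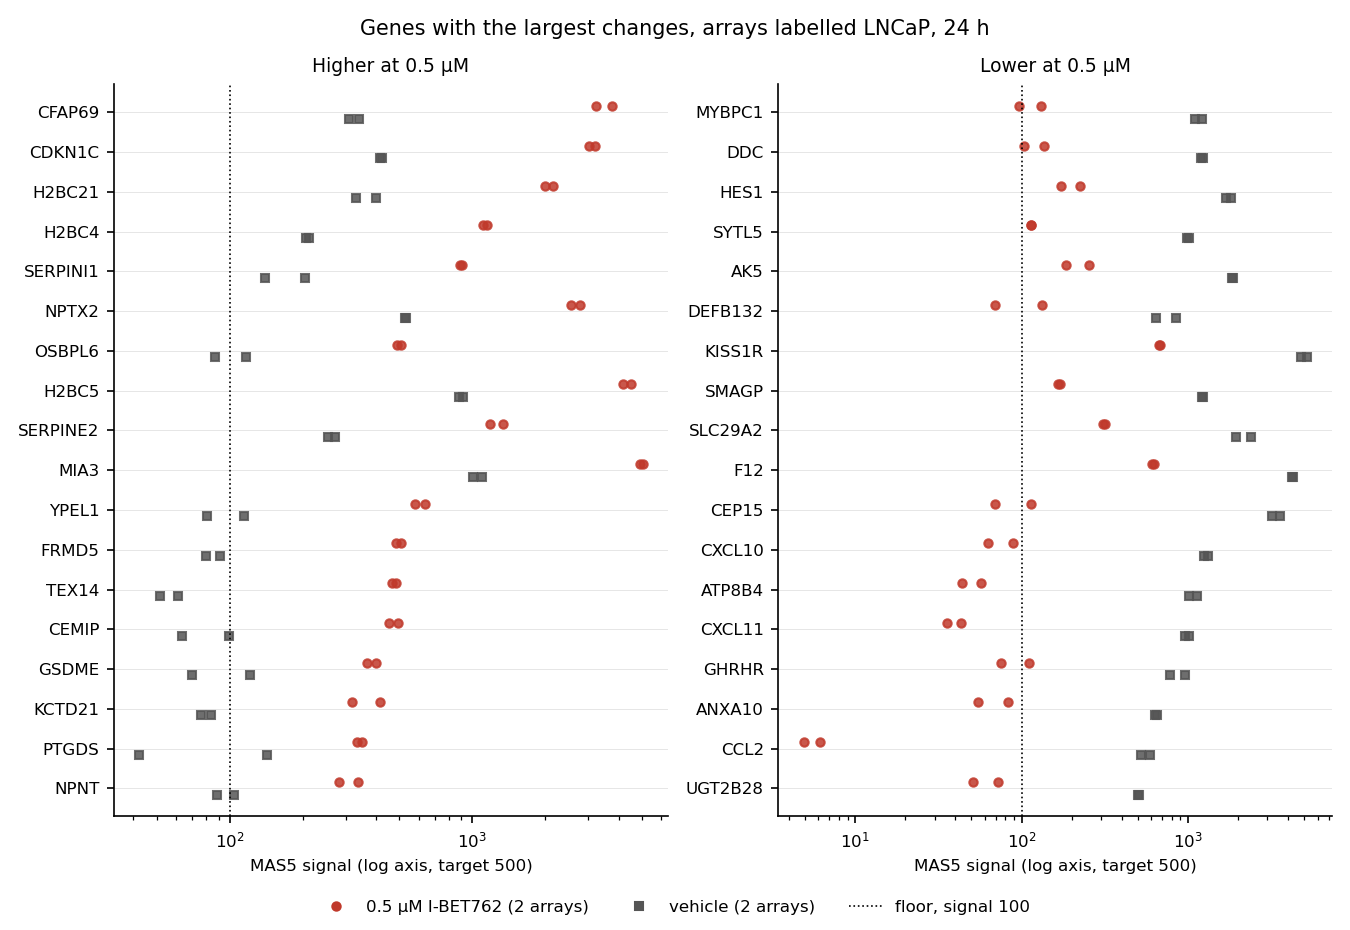
MAS5 signal (log axis) of the 36 genes with the largest changes on each of the 4 arrays labelled LNCaP, 18 higher and 18 lower at 0.5 µM. Red circles are the 2 arrays at 0.5 µM, grey squares the 2 vehicle arrays and the dotted line the floor of 100. In every gene drawn the 2 groups lie apart, which was a condition for being drawn.

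Chemokines are secreted ligands that draw immune cells. CXCL10 and CXCL11 share the receptor CXCR3 on T cells, and CCL2 attracts monocytes. Of 36 chemokine genes on the array 9 were measured, only 2 of them over the floor in both groups, and 4 of the 9 fell and 0 rose. CCL2 had 6.128 and 4.901 at 0.5 µM against 522.2 and 591.4 in vehicle, at least 5.57-fold lower (limma adjusted p = 6.68e-05). CXCL10 had 62.93 and 88.84 at 0.5 µM against 1248 and 1323 in vehicle, at least 12.9-fold lower (limma adjusted p = 0.00122), and CXCL11 had 35.69 and 43.17 at 0.5 µM against 956.2 and 1020 in vehicle, at least 9.88-fold lower (limma adjusted p = 0.0139). All 3 dropped under the floor on every treated array. CXCL16, which is made with a membrane stalk, had 276.9 and 238.6 at 0.5 µM against 387.6 and 358.1 in vehicle (log2 change -0.54, limma adjusted p = 0.0276). CXCL1 (51.16 and 68.66 at 0.5 µM against 210.5 and 119.1 in vehicle) and CXCL8 (71.37 and 41.70 against 99.70 and 142.7) did not pass. Nor did CXCL9, with 135.2 and 73.40 at 0.5 µM against 113.2 and 83.55 in vehicle (log2 change 0.03, limma adjusted p = 0.984).

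The sequences just before the starts of CXCL10 and CXCL11 are shown because both genes lie close together on chromosome 4 and both fell. RefSeq (GRCh38.p14) places the 250 bases before the start of CXCL10 at chr4:76023498-76023747 and of CXCL11 at chr4:76036071-76036320, both on the minus strand. Capitals mark matches, on either strand, to an interferon response core (GAAANNGAA), a NF-kB core (GGANNTTCC), TATAAA and the AP-1 site TGACTCA, none of which overlap here.
CXCL10: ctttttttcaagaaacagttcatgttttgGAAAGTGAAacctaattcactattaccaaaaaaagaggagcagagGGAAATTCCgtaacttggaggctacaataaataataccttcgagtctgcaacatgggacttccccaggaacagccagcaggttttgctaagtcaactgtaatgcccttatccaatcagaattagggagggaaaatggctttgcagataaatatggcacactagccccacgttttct
CXCL11: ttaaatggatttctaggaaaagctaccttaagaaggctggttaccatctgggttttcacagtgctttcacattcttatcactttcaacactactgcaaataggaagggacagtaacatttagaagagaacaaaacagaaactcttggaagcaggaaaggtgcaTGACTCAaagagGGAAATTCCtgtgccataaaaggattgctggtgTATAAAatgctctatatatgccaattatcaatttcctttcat
Counted back from the start, the interferon core of CXCL10 begins at -221 and its NF-kB core at -176, while CXCL11 has TGACTCA at -87, the NF-kB core at -75 and TATAAA at -42. Among 27305 promoters of this length the NF-kB core was found in 3.88%, the interferon core in 7.06%, TATAAA in 11.1% and TGACTCA in 4.16%. CACGTG, the E-box that MYC binds, was in neither of the printed sequences and in 6.49% of all promoters. A match describes letters and does not show that a factor binds there.

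Other immune genes moved in both directions. Of 25 measured interferon response genes 8 fell and 6 rose. CMPK2, a mitochondrial nucleotide kinase, had 60.53 and 77.40 at 0.5 µM against 361.1 and 308.9 in vehicle, at least 3.35-fold lower, and OAS3, which makes oligoadenylates, had 242.5 and 273.2 at 0.5 µM against 598.1 and 664.3 in vehicle (log2 change -1.29). LGALS3BP, IFITM3, DTX3L, PARP9 and ISG15 fell by 0.60 to 1.02 on the log2 scale, and ISG20 was at least 1.62-fold lower. IRF7, the factor that amplifies interferon production, rose instead, with 1708 and 1884 at 0.5 µM against 821.1 and 999.1 in vehicle (log2 change 0.99, limma adjusted p = 0.000537), and so did IFIT2, IFI6, HERC5, IFIT3 and RIGI. Among 19 measured antigen presentation genes 6 fell (31.6%, where 16.5% of all measured genes fell) and 0 rose. PSMB8, an immunoproteasome subunit, had 68.21 and 76.93 at 0.5 µM against 410.9 and 426.7 in vehicle, at least 4.19-fold lower. TAP2, a subunit of the peptide transporter, had 157.5 and 169.7 at 0.5 µM against 510.2 and 510.9 in vehicle (log2 change -1.64, SE 0.13), and the immunoproteasome subunit PSMB10 and the class II gene HLA-DRB1, whose probe set can bind related transcripts, fell by 1.38 and 1.31. The partners TAP1 and PSMB9, HLA-B, HLA-C and B2M did not pass (log2 changes 0.08 to 0.32).

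Of 12 measured innate receptors and adaptors 4 fell and 1 rose (2 to 3 lower with 1 array left out). IRAK1, a kinase downstream of Toll-like receptors, had 3793 and 3327 at 0.5 µM against 9060 and 8642 in vehicle (log2 change -1.32, limma adjusted p = 7.3e-06), and the adaptor MYD88 fell by 0.62. FPR3, a formyl peptide receptor, was at least 3.05-fold lower. NOD1 passed with overlapping arrays (151.8 and 74.65 at 0.5 µM, 17.61 and 79.79 in vehicle). Of 16 complement and coagulation genes 5 fell, led by F12 and by F5 (log2 change -1.83), and 2 rose, CLU and CD59, which both restrain the terminal complement complex, and 2 to 4 fell with 1 array left out. NF-kB components and cytokines were split, 4 higher and 3 lower of 21 (19.0% and 14.3%, near the 17.4% and 16.5% of all measured genes). NFKBIZ had 715.1 and 730.9 at 0.5 µM against 324.5 and 363.1 in vehicle (log2 change 1.07), TNFSF15 fell by 1.39 and NFKB2 passed lower. Under median centring the split of this list was 2 higher and 4 lower. RELA and NFKBIA did not pass (log2 changes -0.09 and -0.14). Secreted antimicrobial and protease inhibitor genes had 6 of 15 lower and 0 higher, with SLPI, an inhibitor of neutrophil elastase, at 855.4 and 720.2 at 0.5 µM against 2338 and 2051 in vehicle (log2 change -1.48, limma adjusted p = 2.1e-05). REG4 and S100P in the same group fell by 2.35 and 1.64, but only 1 to 3 of the 6 held with 1 array left out.

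Lipid genes fell more often than they rose. Of 45 measured fatty acid and triglyceride genes 14 fell (31.1%, where 16.5% of all measured genes fell) and 4 rose. ELOVL6, which lengthens palmitate, had 485.9 and 392.6 at 0.5 µM against 2324 and 2293 in vehicle (log2 change -2.40, SE 0.16, limma adjusted p = 1.78e-06), on 3 of 3 probe sets. LPL, lipoprotein lipase, had 600.9 and 725.1 at 0.5 µM against 4317 and 3986 in vehicle (log2 change -2.65, limma adjusted p = 0.001). MGLL, which splits monoacylglycerols, had 2054 and 1806 at 0.5 µM against 4643 and 4672 in vehicle (log2 change -1.27), and the fatty acid binding protein FABP5 had 1066 and 1169 at 0.5 µM against 3271 and 3193 in vehicle (log2 change -1.53). In all 4 the arrays of the groups lay well apart. ACLY, which supplies acetyl-CoA in the cytosol, fell by 0.87 and the desaturase SCD by 0.39, whereas FASN and ACACA did not pass (log2 changes -0.23 and -0.39). The triglyceride synthases split: DGAT2 fell by 1.04, and DGAT1 rose by 1.36, with 1365 and 1538 at 0.5 µM against 524.1 and 607.7 in vehicle. AMACR, the racemase used as a prostate cancer marker, rose by 1.47 on 1 of 3 probe sets.

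Of 24 measured cholesterol genes 5 rose (20.8%, where 17.4% of all measured genes rose) and 4 fell (16.7%, where 16.5% fell), none by 2-fold. NPC2, which carries cholesterol out of lysosomes, had 6825 and 7132 at 0.5 µM against 3792 and 3722 in vehicle (log2 change 0.89). INSIG1 and INSIG2, which hold back sterol synthesis, rose by 0.59 and 0.57, and the synthesis enzyme FDPS fell by 0.56. Median centring turned the split to 1 higher and 5 lower. Of 15 steroid genes 6 fell (40.0%, where 16.5% of all measured genes fell) and 1 rose, but fewer fell with 1 array left out. HSD11B2, among the 6, met the floor through vehicle alone. AKR1C3, an androgen-forming reductase, had 1652 and 1482 at 0.5 µM against 4819 and 5114 in vehicle (log2 change -1.67, SE 0.61, limma adjusted p = 0.0972). Of 30 xenobiotic enzymes 9 fell (30.0%) and 5 rose (16.7%, near the 17.4% of all measured genes), with fewer falls when 1 array was left out. CYP1B1 was at least 2.85-fold lower and the glutathione transferase MGST1 fell by 1.09. In the prostaglandin and leukotriene list 6 of 18 fell (33.3%, where 16.5% of all measured genes fell) and 3 rose (16.7%, where 17.4% rose). PTGES, the prostaglandin E synthase, had 474.6 and 349.6 at 0.5 µM against 1611 and 1445 in vehicle (log2 change -1.91), and the prostaglandin E receptor PTGER4 and the degrading enzyme HPGD each fell by 1.53, while PTGDS rose and LTA4H, which makes leukotriene B, rose by 1.05.

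**Figure D3:**
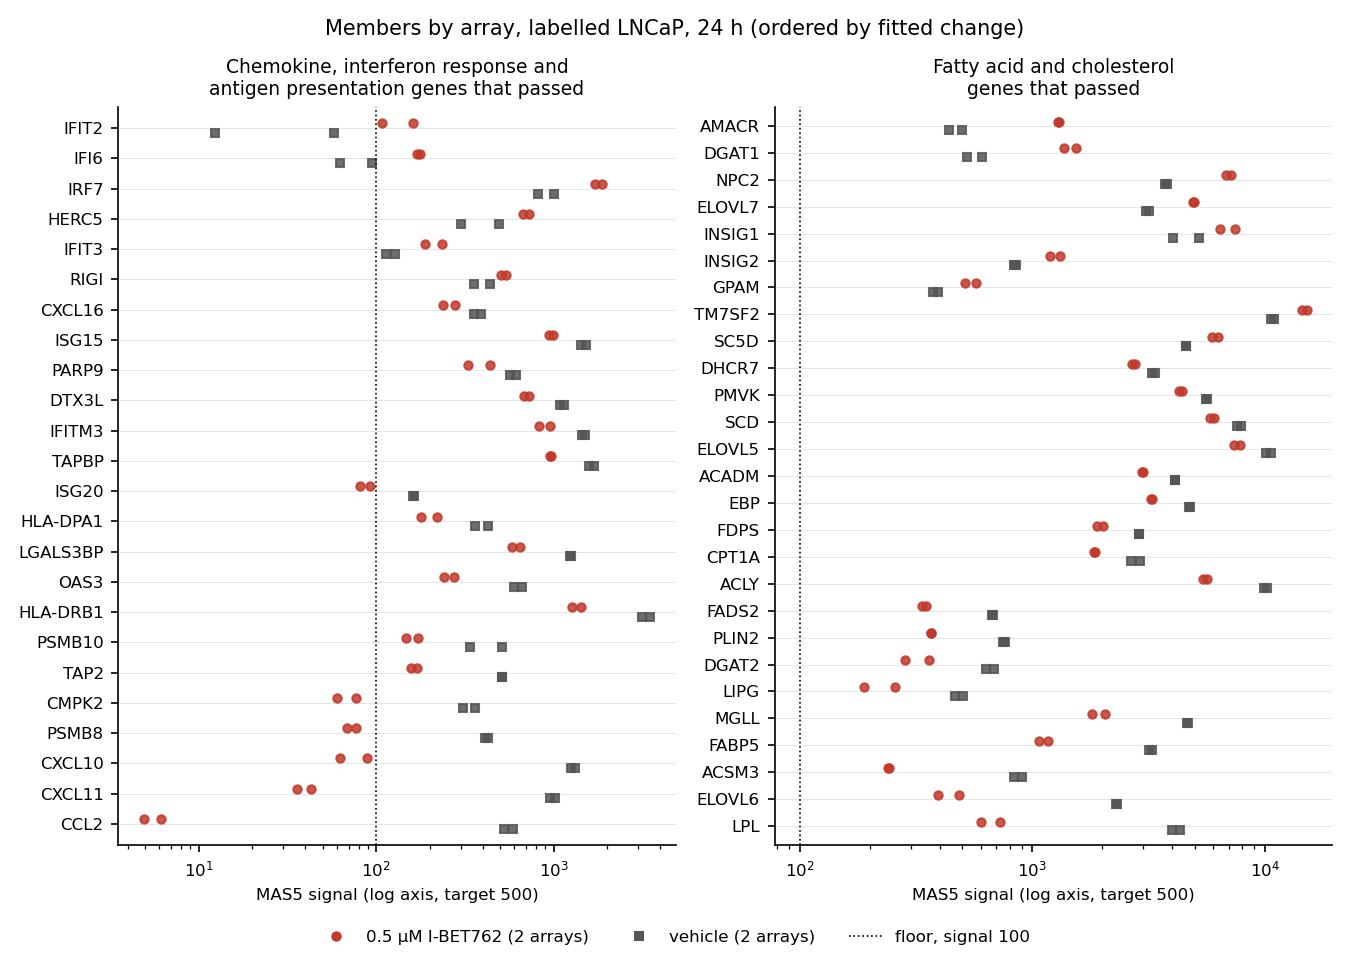
MAS5 signal (log axis) by array, labelled LNCaP, for the chemokine, interferon response and antigen presentation genes that passed (24 genes, 6 higher and 18 lower) and the fatty acid and cholesterol genes that passed (27 genes, 9 higher and 18 lower). Red circles are the 2 arrays at 0.5 µM and grey squares the 2 vehicle arrays, ordered by fitted change; CCL2 had signals of 6.128 and 4.901 at 0.5 µM.

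Energy metabolism also leaned lower. Of 32 measured glucose uptake and glycolysis genes 10 fell (31.2%, where 16.5% of all measured genes fell) and 4 rose (12.5%, where 17.4% rose). Fewer fell with 1 array left out. PFKP, a phosphofructokinase, had 544.8 and 655.1 at 0.5 µM against 2059 and 2123 in vehicle (log2 change -1.81, limma adjusted p = 6.15e-06), and ENO1, the enolase most cells use, had 9719 and 9616 at 0.5 µM against 20050 and 19550 in vehicle (log2 change -1.03). Among other isoforms of glycolytic enzymes ALDOC rose by 1.30 and ENO2 by 0.76, ENO3 was at least 1.26-fold lower, and the inositol transporter SLC2A13 was at least 2.82-fold higher. SLC2A1 and LDHA did not pass (log2 changes -0.23 and -0.34). Of 45 respiratory chain genes 11 fell (24.4%) and 1 rose (2.22%). ATP5MC1, a subunit of the ATP synthase rotor, had 1896 and 1793 at 0.5 µM against 5453 and 5779 in vehicle (log2 change -1.61, SE 0.10), and NDUFB10 of complex I had 4011 and 3973 at 0.5 µM against 9005 and 8765 in vehicle (log2 change -1.15). TXNIP, which limits glucose uptake, rose, with 11820 and 12890 at 0.5 µM against 4505 and 4131 in vehicle (log2 change 1.52, limma adjusted p = 8.96e-06), and so did its relatives ARRDC3 (0.98) and ARRDC4 (0.67), the 3 rises among 8 measured genes of that list; thioredoxin (TXN) fell by 0.38. Hypoxia genes gave 6 lower and 4 higher of 23 (3 to 5 lower with 1 array left out), with STC2 and CA12 lower by 1.44 and 1.16, the vasodilator ADM higher by 1.07, and HIF1A itself not past the test (log2 change -0.05).

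Of 39 measured genes of the unfolded protein response and of ATF4 15 rose (38.5%) and 7 fell (17.9%). HSPA5 (BiP) had 22460 and 23780 at 0.5 µM against 13550 and 12600 in vehicle (log2 change 0.82, limma adjusted p = 0.000129). HSP90B1 had 16480 and 17040 at 0.5 µM against 7585 and 8106 in vehicle (log2 change 1.10), and the disulfide isomerase PDIA4 had 10720 and 11290 at 0.5 µM against 4749 and 5302 in vehicle (log2 change 1.13). The HSP90B1 probe set can bind related transcripts, and 1 of 2 measured HSP90B1 probe sets passed. DNAJC3, SEL1L, CALR, CRELD2, MANF and HYOU1 rose by 0.65 to 1.11. Among the ATF4 targets TRIB3 had 1389 and 1338 at 0.5 µM against 3437 and 3518 in vehicle (log2 change -1.35), and the serine and folate enzymes PSAT1, MTHFD2, SHMT2 and PHGDH fell by 0.49 to 0.76, while ASNS and SESN2 rose. ATF4, DDIT3 and XBP1 did not pass (log2 changes -0.18 to -0.05). Nor did the endoplasmic reticulum chaperones DNAJB11 (0.02), CANX (0.19) and PDIA3 (0.39), SDF2L1 of the same compartment, or the serine enzyme PSPH (0.36). Heat shock proteins outside the endoplasmic reticulum had 8 of 28 lower and 4 higher, with the mitochondrial chaperonin HSPE1 and TRAP1 lower by 0.91 and 0.82 and the cochaperone DNAJB1 higher by 0.74. Amino acid transporters and polyamine enzymes had 8 of 29 lower and 4 higher. SLC43A1, a carrier of large neutral amino acids, had 122.2 and 120.4 at 0.5 µM against 751.9 and 877.1 in vehicle (log2 change -2.74, limma adjusted p = 1.27e-05), and SLC7A1 and SLC1A5 fell by 1.28 and 1.40. Of the polyamine enzymes, the spermidine synthase SRM fell by 1.30 and the acetyltransferase SAT1, which acts in breakdown, rose by 1.11. Polyamines were not measured.

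Metallothioneins bind zinc and copper. MT1F had 5730 and 6472 at 0.5 µM against 2193 and 2471 in vehicle (log2 change 1.39, limma adjusted p = 7.23e-06), and MT1H, MT1X, MT1E and MT2A rose by 0.79 to 1.28, while MT3 did not pass (0.06). These genes are close copies of each other, and a probe set may read more than 1 of them. SLC30A4, a zinc exporter, had 11660 and 11940 at 0.5 µM against 2933 and 2850 in vehicle (log2 change 2.03, limma adjusted p = 1.55e-05), and the zinc importer SLC39A4 fell by 1.40. With the transporters the list had 8 of 25 higher and 7 lower (2 to 5 lower with 1 array left out, 7 and 7 under median centring).

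Replication-dependent histone genes gave the highest share of rises of any list. They encode the bulk of nucleosomal histones, lie in clusters on chromosomes 6 and 1, and normally end their transcripts in a stem-loop without a poly(A) tail. How the RNA was selected or primed for these arrays was not examined. All 42 were on the array, 24 were measured, and 16 of those rose (66.7%) and 0 fell, 13 to 17 with 1 array left out and 16 under median centring. H2BC21 had 1984 and 2144 at 0.5 µM against 330.1 and 401.4 in vehicle (log2 change 2.50, SE 0.11, limma adjusted p = 8.37e-08). H2BC4 had 1148 and 1106 at 0.5 µM against 211.3 and 206.4 in vehicle (log2 change 2.43, SE 0.11, limma adjusted p = 8.37e-08), and H2BC5 had 4165 and 4493 at 0.5 µM against 917.8 and 878.2 in vehicle (log2 change 2.27). All 3 are H2B genes, and their treated arrays lay far above both vehicle arrays. Among H2A genes H2AC6 had 4558 and 5282 at 0.5 µM against 1630 and 1685 in vehicle (log2 change 1.57), and H2AC8 rose by the same 1.57. The linker histone H1-2 had 13110 and 13140 at 0.5 µM against 5829 and 5758 in vehicle (log2 change 1.18), and the H4 gene H4C8 rose by 1.43. Not every member moved: H4C11 had 1475 and 1507 at 0.5 µM and 1240 and 1190 in vehicle (log2 change 0.30, limma adjusted p = 0.25), and the H3 genes H3C3, H3C6 and H3C7 did not pass. The coding sequences are near-identical within each class, and a probe set may read more than 1 copy.

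The 250 bases before the start of 3 of these genes are shown, since TATAAA was found in 9 of the 12 called histone genes and in 11.1% of all 27305 RefSeq promoters of that length. H2BC21 lies at chr1:149886683-149886932 on the minus strand, H2BC5 at chr6:26157871-26158120 on the plus strand and H2BC4 at chr6:26123927-26124176 on the minus strand (GRCh38.p14). H2BC4 starts 246 bases from H2AC6, which is read the other way, so 245 of the bases printed for H2BC4 also precede H2AC6, and both genes of the pair were called higher. Capitals mark TATAAA on either strand (TTTATA when read on the other strand) and, in H2BC21, the interferon core GAAANNGAA.
H2BC21: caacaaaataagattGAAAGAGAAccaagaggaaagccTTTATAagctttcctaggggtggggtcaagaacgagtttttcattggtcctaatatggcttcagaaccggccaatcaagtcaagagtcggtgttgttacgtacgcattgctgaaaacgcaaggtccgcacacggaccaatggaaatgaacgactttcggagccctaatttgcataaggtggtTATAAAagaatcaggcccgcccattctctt
H2BC5: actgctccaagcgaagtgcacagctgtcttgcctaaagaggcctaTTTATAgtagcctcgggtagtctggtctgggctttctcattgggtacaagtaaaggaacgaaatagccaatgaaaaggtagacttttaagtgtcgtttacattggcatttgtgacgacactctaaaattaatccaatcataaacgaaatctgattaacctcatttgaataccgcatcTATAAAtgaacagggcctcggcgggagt
H2BC4: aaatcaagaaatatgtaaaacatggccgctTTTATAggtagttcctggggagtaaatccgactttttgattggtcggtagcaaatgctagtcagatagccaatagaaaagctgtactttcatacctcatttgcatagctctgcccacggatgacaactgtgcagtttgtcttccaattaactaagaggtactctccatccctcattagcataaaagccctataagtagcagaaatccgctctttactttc
TATAAA begins at -30 in H2BC21 and -28 in H2BC5, where a TATA box is normally placed, and further copies begin at -212 and -205. Of the 9 genes, H2BC4, H2BC6 and H2AC8 had TATAAA only further out, at -220, -189 and -206, and the other 6 had a copy between -31 and -28. In H2BC4 the match at -220 is the TATAAA that begins at -31 of H2AC6. The interferon core was found in 3 of the 12 (25.0%), the NF-kB core, TGACTCA and CACGTG in 0 of 12.

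Cilium and basal body genes had the next highest share of rises. The primary cilium is a sensory antenna built from the centriole by intraflagellar transport (IFT) trains and the BBSome cargo adaptor. Of 56 measured genes 29 rose (51.8%) and 2 fell (3.57%), with 21 to 26 higher when 1 array was left out and 16 higher under median centring. WDR19, an IFT-A subunit, had 1005 and 1382 at 0.5 µM against 334.5 and 413.6 in vehicle (log2 change 1.66, limma adjusted p = 0.000317). KIF3A, a motor of the trains, had 1581 and 1631 at 0.5 µM against 566.8 and 612.3 in vehicle (log2 change 1.45, limma adjusted p = 0.000127). IFT88 and IFT80 of the IFT-B complex rose by 1.27 and 1.41, and the BBSome subunits BBS7, BBS9 and TTC8 by 1.41, 1.17 and 1.02. CEP68, which ties centrioles together, had 446.1 and 445.4 at 0.5 µM against 179.9 and 153.3 in vehicle (log2 change 1.42), on 4 of 5 probe sets. The exceptions were BBS4, also of the BBSome, with 1419 and 1356 at 0.5 µM against 2453 and 2328 in vehicle (log2 change -0.78), and CC2D2A of the transition zone (log2 change -0.85). Most single rises were small, and 9 of the 29 passed 2-fold. Whether the cells carried more cilia was not measured.

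**Figure D4:**
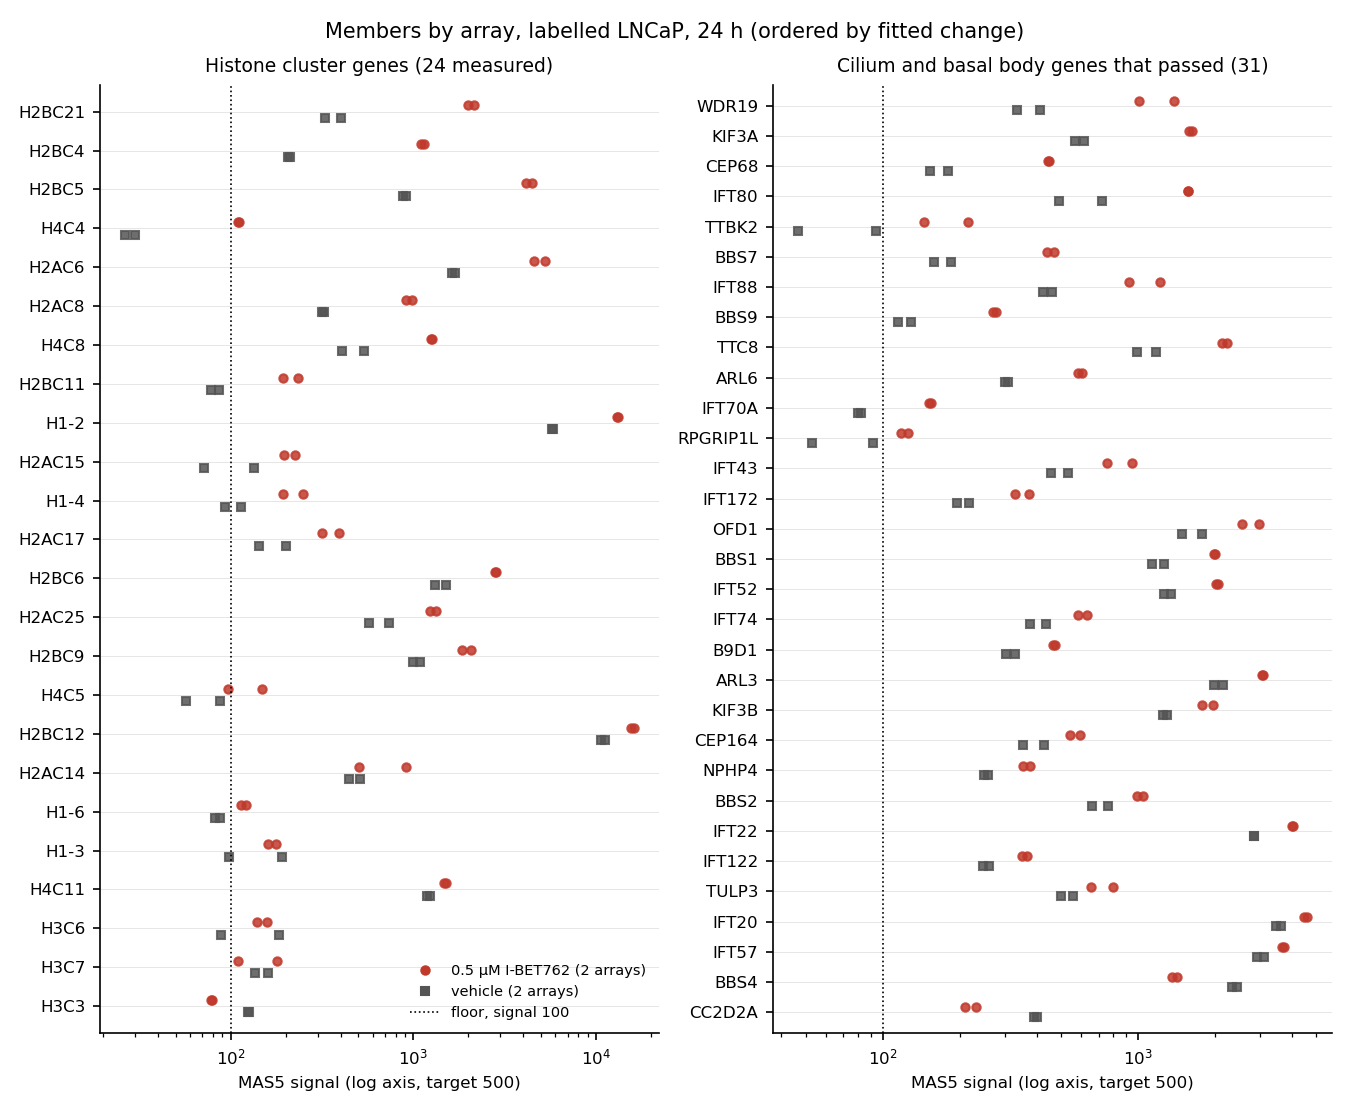
MAS5 signal (log axis) by array, labelled LNCaP, for the 24 measured histone cluster genes and the 31 cilium and basal body genes that passed, ordered by fitted change. Red circles are the 2 arrays at 0.5 µM, grey squares the 2 vehicle arrays and the dotted line the floor of 100; BBS4 and CC2D2A are the 2 cilium genes whose treated arrays lie below vehicle.

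In the list of D cyclins, CDK inhibitors and p53 targets, which also holds CDK4, 15 of 36 rose (41.7%) and 4 fell. Beside CDKN1C, SESN1, a sestrin induced by p53, had 1734 and 1861 at 0.5 µM against 658.1 and 618.2 in vehicle (log2 change 1.49, limma adjusted p = 1.39e-05), and GADD45B had 930.3 and 978.8 at 0.5 µM against 320.7 and 304.8 in vehicle (log2 change 1.61, limma adjusted p = 4.21e-06). CCNG2, SESN2, SESN3 and TP53I3 rose by 1.02 to 1.19 and FOXO3 by 0.88. The better known inhibitors CDKN1A and CDKN1B did not pass (log2 changes 0.21 and 0.23), nor did the p53 partner MDM2 (-0.05). CDK4 fell, with 5087 and 5089 at 0.5 µM against 9799 and 9437 in vehicle (log2 change -0.92), as did the p53 targets DDB2 (at least 2.38-fold lower) and FAS (by 1.09). CCND1 had 5999 and 6590 at 0.5 µM and 3571 and 3425 in vehicle, which did not pass (log2 change 0.85, limma adjusted p = 0.387), but passed in a fit of the 6 arrays labelled LNCaP alone (limma adjusted p = 0.0782).

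In the BCL2 and death receptor list 11 of 36 fell and 9 rose (7 to 8 lower and 6 to 8 higher with 1 array left out, 12 lower and 6 higher under median centring). The receptors FAS, TNFRSF10A and TNFRSF10B all fell, as did their adaptor FADD, the initiator caspase CASP8 and its inhibitor CFLAR, FAS with 2605 and 2589 at 0.5 µM against 5631 and 5401 in vehicle. Some did so on part of their measured probe sets: FAS on 3 of 5, TNFRSF10B on 1 of 3, CASP8 on 1 of 2 and CFLAR on 5 of 11. BID, which links these receptors to mitochondria, had 242.6 and 195.6 at 0.5 µM against 465.8 and 494.8 in vehicle (log2 change -1.14). BCL2L11 (BIM) and APAF1 of the mitochondrial arm rose, BCL2L11 by 0.76 and APAF1 to at least 1.53-fold, CASP6 rose by 1.17 and the pro-survival MCL1 by 0.40, whereas BAX and BCL2L1 did not pass. In the same list BOK and HTRA2 fell by 0.49 and 0.43, and BIK, PMAIP1 and CASP9 rose by 0.52, 0.50 and 0.82.

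Among BET proteins and elongation factors 12 of 45 rose and 5 fell (7 to 8 higher with 1 array left out), and median centring turned this to 3 higher and 7 lower. BRD2 had 6079 and 6120 at 0.5 µM against 2919 and 3225 in vehicle (log2 change 0.99, SE 0.10, limma adjusted p = 3.87e-05), and BRD3 did not pass (0.33). The elongation factor TCEA3 had 949.9 and 807.9 at 0.5 µM against 2606 and 2915 in vehicle (log2 change -1.65). In the MYC network the antagonists MXD1 and MXI1 rose by 0.89 and 0.59 and MNT fell by 0.81, 2 higher and 3 lower of 10 measured. Histone and DNA modifying enzymes were split, 13 higher and 15 lower of 78, with 5 to 7 higher and 9 to 11 lower when 1 array was left out and 2 higher and 21 lower under centring. The shares of these enzymes, 16.7% higher and 19.2% lower, were near the 17.4% and 16.5% of all measured genes. UHRF1, which brings DNMT1 to replicated DNA, had 745.8 and 753.8 at 0.5 µM against 2467 and 2145 in vehicle (log2 change -1.62), EZH2 fell by 0.65 and the deacetylase SIRT1 rose by 0.95. Of 371 measured numbered zinc finger genes 76 rose and 40 fell (20.5% and 10.8%), but 38 to 51 rose with 1 array left out and median centring gave 33 higher and 53 lower. ZNF449 had 755.9 and 921.3 at 0.5 µM against 202.2 and 250.5 in vehicle (log2 change 1.89) and ZNF532 fell by 2.26.

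Insulin, PI3 kinase and mTOR genes had 14 of 47 higher and 7 lower (8 and 9 under median centring, 3 to 4 lower with 1 array left out). RPS6KA2, an S6 kinase of the RSK family, had 490.7 and 457.3 at 0.5 µM against 114.8 and 124.7 in vehicle (log2 change 1.99, limma adjusted p = 1.89e-06). IRS2 rose by 0.82 while IRS1 fell by 1.09, and the translation repressor EIF4EBP1 fell by 1.03. Autophagy and lysosome genes had 22 of 65 higher (33.8%) and 4 lower, 13 higher when any 1 array was left out and 10 against 6 under median centring. LAMP2, a lysosomal membrane protein, had 3111 and 2437 at 0.5 µM against 1061 and 1168 in vehicle (log2 change 1.31), NEU1, MAP1LC3B and SQSTM1 rose by 0.96, 0.83 and 0.46, and TFEB, the factor that drives lysosome genes, fell by 1.51, with 207.5 and 172.4 at 0.5 µM against 593.8 and 488.3 in vehicle. Secretory vesicle genes had 17 of 48 higher and 5 lower (10 to 12 higher with 1 array left out, 7 against 6 under centring). PCLO, a scaffold of the presynaptic zone, had 591.2 and 725.6 at 0.5 µM against 154.9 and 178.2 in vehicle (log2 change 1.98), and its partner RIMS1 fell by 1.59.

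Immediate early genes rose more often than they fell, 9 against 5 of 22 (3 to 4 lower with 1 array left out). JUN had 567.9 and 553.2 at 0.5 µM against 179.9 and 184.5 in vehicle (log2 change 1.62, limma adjusted p = 1.04e-05). IER5 had 1062 and 1216 at 0.5 µM against 375.9 and 314.5 in vehicle (log2 change 1.72, limma adjusted p = 3.18e-06). FOS crossed the floor only at 0.5 µM (121.2 and 93.96 against 14.79 and 6.881 in vehicle), and CCN2 was at least 2.15-fold higher, while KLF4 and MAFF fell by 1.06 and 1.13. Feedback inhibitors of MAP kinases were split, 9 higher and 5 lower of 32 (4 and 6 under centring). DUSP6, the phosphatase that ERK signalling induces, had 141.0 and 90.59 at 0.5 µM against 537.1 and 633.1 in vehicle (log2 change -2.37, limma adjusted p = 0.000179), and SPRY1 fell by 1.12, whereas SOCS1, which restrains JAK kinases, was at least 1.42-fold higher. Of 30 receptor tyrosine kinases and ligands 2 rose and 2 fell, with the ligand gene MST1 higher by 1.81, FGFR1 higher by 0.94, ERBB3 lower by 0.60 and VEGFA lower by 0.45.

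Of 33 G protein-coupled receptors and regulators 12 fell (36.4%) and 3 rose, with a median log2 change of -0.05 over the list and 0.03 over all measured genes, and 8 fell when any 1 array was left out. MRGPRX3, GHRHR and ADORA2B were over the floor in vehicle alone. Beside KISS1R, GHRHR and PTGER4, ADORA2B, an adenosine receptor, was at least 1.95-fold lower and MRGPRX3 at least 1.15-fold, the chemokine scavenger ACKR3 fell by 1.34, and RGS4, which shortens G protein signals, had 446.6 and 437.7 at 0.5 µM against 2813 and 2548 in vehicle (log2 change -2.60, limma adjusted p = 0.071). Wnt pathway genes gave 8 higher and 0 lower of 33, 4 to 5 higher with 1 array left out, and 3 higher and 4 lower under median centring. FZD7 was at least 1.64-fold higher and FZD3 rose by 0.71; CTNNB1, beta-catenin, rose by 0.30, and its target AXIN2 did not pass (0.33). Notch genes were split at 3 and 3 of 25 (3 and 7 under centring). HES1 and HES4 fell and HES6, which opposes HES1, rose, with 744.1 and 795.0 at 0.5 µM against 277.5 and 297.4 in vehicle (log2 change 1.42, limma adjusted p = 0.00343), and the ligand JAG1 rose by 0.81. Of 38 TGF-beta and BMP genes 8 fell and 4 rose (0 rose under centring, 2 to 4 with 1 array left out), with the receptor BMPR1B at 1615 and 1568 at 0.5 µM against 3808 and 3658 in vehicle (log2 change -1.23).

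Of 26 matrix genes 6 fell (23.1%, where 16.5% of all measured genes fell) and 0 rose, and only 2 to 4 fell with 1 array left out. THBS1, thrombospondin 1, had 874.4 and 827.1 at 0.5 µM against 2057 and 2065 in vehicle (log2 change -1.28), COL4A2 of basement membranes fell by 2.11, and FBN1 and SPARC were at least 1.68-fold and 1.28-fold lower. Integrins moved both ways, 2 higher and 2 lower of 11 (18.2% each, near the 17.4% and 16.5% of all measured genes). Fewer were lower with 1 array left out. ITGB1 rose by 0.42 and ITGA2 fell under the floor. Of 29 proteases and inhibitors 4 rose and 3 fell, 2 and 4 under median centring and 2 against 1 to 2 with 1 array left out. Beside SERPINI1 and SERPINE2, TIMP2 had 200.3 and 240.1 at 0.5 µM against 582.5 and 518.9 in vehicle (log2 change -1.33) on 3 of 3 probe sets, and the surface protease HPN fell by 1.07. Heparan sulfate genes had 5 of 25 higher and 2 lower (3 to 5 higher with 1 array left out). HS6ST2, a sulfotransferase, had 364.2 and 343.4 at 0.5 µM against 2449 and 2228 in vehicle (log2 change -2.72, limma adjusted p = 2.14e-05), and the epimerase GLCE was at least 2.34-fold higher. Axon guidance genes had 7 of 41 higher (17.1%, near the 17.4% of all measured genes) and 3 lower (7.32%, where 16.5% fell). ROBO1 was at least 2.87-fold higher and SEMA4A fell by 1.27.

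Of 33 junction genes 6 fell (18.2%, near the 16.5% of all measured genes) and 3 rose (9.09%, where 17.4% rose). The claudin CLDN7 had 1211 and 949.3 at 0.5 µM against 3491 and 2987 in vehicle (log2 change -1.59), and CLDN3 fell by 0.81. Of the connexins, which form gap junctions, GJB6 had 3.678 and 5.595 at 0.5 µM against 163.0 and 164.0 in vehicle, at least 1.64-fold lower, and GJA3 rose by 1.95. Of 6 measured keratins KRT8, a luminal keratin read by a probe set that can bind related transcripts, had 7452 and 7181 at 0.5 µM against 3074 and 3190 in vehicle (log2 change 1.22), and its partner KRT18 did not pass (0.07). The basal keratin KRT14 had 31.18 and 37.13 at 0.5 µM against 352.4 and 305.3 in vehicle, at least 3.29-fold lower (limma adjusted p = 0.0355), a call not made in any fit with 1 array left out. In the epithelial-mesenchymal list CD44 fell by 1.36 and the epithelial factor GRHL2 rose by 0.60, 4 lower and 1 higher of 11 (1 lower with any 1 array left out). The other 3 that fell, OVOL2, ESRP1 and EPCAM, are epithelial genes and moved by 0.28 to 0.36, OVOL2 turning to 0.16 when its probe sets were averaged, and VIM and CDH1 did not pass (0.29 and 0.27).

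Prostate genes had 8 of 36 lower (22.2%, where 16.5% of all measured genes fell) and 3 higher (8.33%, where 17.4% rose). SPDEF, a luminal ETS factor, had 1627 and 1569 at 0.5 µM against 5186 and 5392 in vehicle (log2 change -1.73, limma adjusted p = 0.00123), on 3 of 5 probe sets. The SPDEF probe set read here can bind related transcripts. TGM4, the prostate transglutaminase, was at least 4.17-fold lower, FKBP5 fell by 0.69, and SLC45A3 (prostein) rose by 1.69, with 6669 and 7046 at 0.5 µM against 2354 and 1914 in vehicle. KLK2 and TMPRSS2, both induced by androgen, did not pass (log2 changes -0.12 and -0.07). KLK3, which encodes PSA, had 3061 and 2818 at 0.5 µM and 8120 and 7743 in vehicle, groups well apart, yet did not pass (log2 change -1.43, SE 0.79, limma adjusted p = 0.303). Its standard error pools all 4 lines, and in a fit of the 6 arrays labelled LNCaP alone the same change had an SE of 0.17 and passed (limma adjusted p = 0.0562). STEAP1 and STEAP2 passed in that fit too (limma adjusted p = 0.0814 and 0.0749, log2 changes 0.74 and 0.86), and ACP3 did not (limma adjusted p = 0.18, log2 change -0.86). Luminal and developmental transcription factors had 8 of 33 higher and 5 lower (4 to 7 higher with 1 array left out, 5 and 6 under centring), with FOXA1 and GATA2 higher by 0.65 and 0.61 and CEBPD lower by 1.28. Clock genes had 5 of 14 higher and 3 lower: NFIL3 had 3008 and 3256 at 0.5 µM against 1058 and 1062 in vehicle (log2 change 1.56, limma adjusted p = 1.74e-06), the repressors BHLHE40 and PER2 fell by 1.56 and 1.03, and the repressors CRY1 and NR1D2 rose by 0.74 and 1.01.

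**Figure D5:**
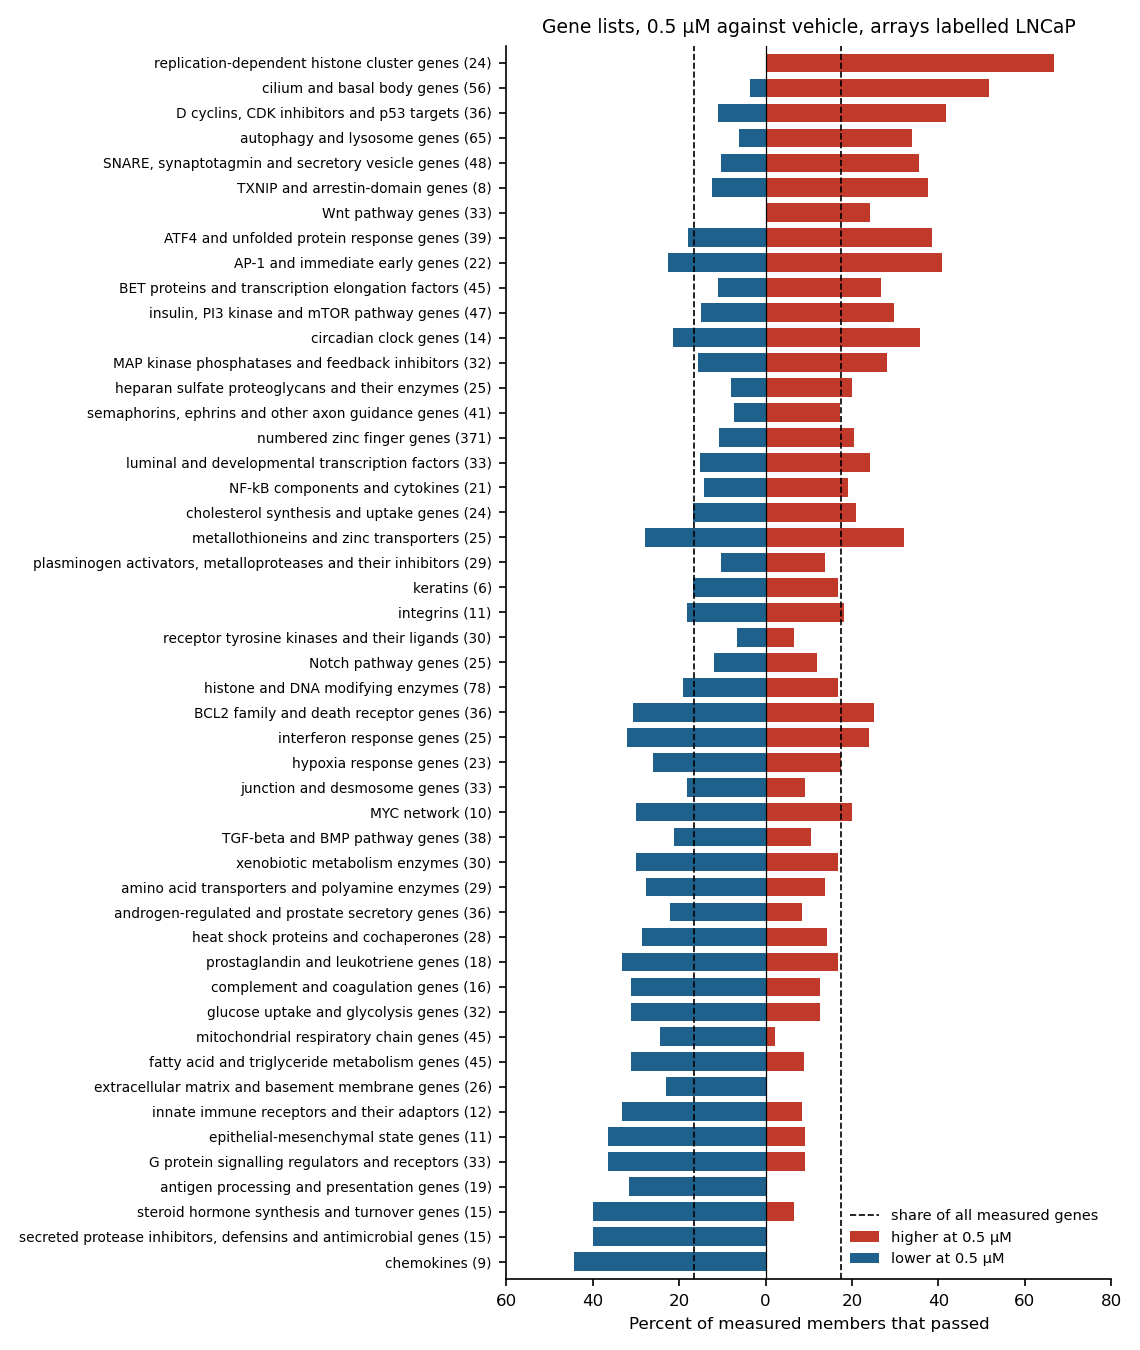
Percent of the measured members of each gene list (number in brackets) that passed higher (red, to the right) or lower (blue, to the left) at 0.5 µM against vehicle on the arrays labelled LNCaP, with any fold. Dashed lines mark the shares over all measured genes, 17.4% higher and 16.5% lower. Histone cluster genes reach 66.7% higher and cilium genes 51.8%, and chemokines 44.4% lower. The chemokine share is 4 genes, of which CCL2, CXCL10 and CXCL11 met the floor through vehicle alone, a filter that favours falls.

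The response on these arrays was compared with the mean response to 0.5 µM in the other 3 lines, by a contrast within the same fit. Of all measured genes 1435 differed (12.1%). Of the 36 genes with the largest changes 28 differed, but these genes were ranked on values that enter the contrast, so that share is a description. HES1 had a log2 change of -3.15 on the arrays labelled LNCaP, with PC3 at 0.20, NCI-H660 at 0.11 and the arrays labelled VCaP at -0.13 (difference -3.21, SE 0.16, limma adjusted p = 1.12e-06). CDKN1C rose by 2.88, with PC3 at -0.10, NCI-H660 at -0.34 and the arrays labelled VCaP at -0.55 (difference 3.21, SE 0.22, limma adjusted p = 2.49e-05). MIA3 rose by 2.24, with PC3 at 0.33, NCI-H660 at -0.05 and the arrays labelled VCaP at 0.55 (difference 1.97, limma adjusted p = 2.49e-05). The histone gene H2BC4 rose in every line, by 2.43 here, 1.78 in PC3, 1.55 in NCI-H660 and 1.19 on the arrays labelled VCaP, all past the test, and the excess here was 0.93 (limma adjusted p = 0.00118). These differences carry the label caveat given above.

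At 10 µM, a contrast that shares the vehicle arrays, some of these genes went further and others had reached their end point. CDKN1C averaged 420.9 in vehicle, 3103 at 0.5 µM and 23210 at 10 µM. H2BC21 averaged 365.8 in vehicle, 2064 at 0.5 µM and 5333 at 10 µM. HES1 averaged 1749 in vehicle, 198.5 at 0.5 µM and 172.9 at 10 µM, and KISS1R 4965 in vehicle, 672.9 at 0.5 µM and 676.6 at 10 µM. CFAP69 averaged 325.3 in vehicle, 3510 at 0.5 µM and 2175 at 10 µM, and FABP5, which fell at 0.5 µM, averaged 3232 in vehicle, 1117 at 0.5 µM and 5765 at 10 µM.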

How the data were processed

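RNA from 4 prostate cancer lines was hybridised to 24 Affymetrix U133 Plus 2.0 arrays, 2 per line and dose. The authors deposited MAS5 intensity values, linear and scaled to a target of 500. These were taken as log2 without further scaling. Of 54675 probe sets 62 controls were left out, 41091 had 1 gene symbol in the platform annotation, 1801 had several and 11721 had none. All 12 groups were fitted together with limma 3.58.1 in R 4.3.3 (12 residual degrees of freedom), with Benjamini-Hochberg adjustment across 54613 probe sets. A probe set needed a mean of 100 in either group. A call needed an adjusted p under 0.1 and a fold over 2. The number of arrays limits the precision.

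A gene was read from its brightest probe set over the 24 arrays, avoiding those open to cross-hybridisation where another existed. Where 1 group lay under 100, the fold is the mean of the brighter group over 100. Named were the 10 largest rises and falls with both groups over the floor, the 8 highest bounds in each direction, and up to 4 passing members of each list. Further members, and KLK3, ACP3, STEAP1, STEAP2, CCND1 and the 10 µM examples, were picked once their values had been seen. The members and the gene lists were chosen with earlier results of these data known. The computation was tested on simulated data. The replicate number was tried as a block, since same-numbered arrays share a number in the labels, but their deviations from the group means correlated at only 0.04. Other settings were the floor, the scaling, the arrays fitted, the probe set per gene and each array left out. Promoters came from RefSeq (GRCh38.p14).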

Additional observations from a re-analysis of the deposited data

Results flagged for a closer look

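Of the 36 genes with the largest changes, 28 responded differently on the arrays labelled LNCaP than in the mean of the other 3 lines (limma adjusted p under 0.1 for the difference itself), 17 more upward and 11 more downward. The genes were ranked on values that enter this contrast, so the number is a description. Values are differences in log2 change, labelled LNCaP minus the mean of the others.

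Among genes that rose, the difference was 3.21 for CDKN1C, 3.20 for CFAP69, 2.15 for NPTX2, 1.97 for MIA3, 1.90 for SERPINE2, 1.69 for SERPINI1 and 1.61 for OSBPL6. It was smaller for the histone genes, at 1.07 for H2BC21, 0.95 for H2BC5 and 0.93 for H2BC4. Among genes under the floor in vehicle it was 3.11 for CEMIP, 2.19 for PTGDS, 2.18 for FRMD5, 1.90 for YPEL1, 1.83 for TEX14, 1.74 for GSDME and 1.27 for KCTD21.

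Among genes that fell, the difference was -3.21 for HES1, -3.01 for MYBPC1, -2.64 for DDC, -2.26 for SLC29A2, -1.75 for KISS1R, -1.72 for F12 and -1.67 for SMAGP. Among genes under the floor at 0.5 µM it was -6.17 for CCL2, -4.69 for CEP15, -4.42 for CXCL10 and -4.17 for ATP8B4, fitted values that rest on signals under 100.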

How the results depend on the processing

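The probe sets called higher numbered 1161 and those called lower 1013. Without a floor 2205 were called higher, and median centring gave 685. With only the 4 arrays compared, limma called 0 higher and 0 lower, although 2448 probe sets had a fold over 2 at an unadjusted p under 0.05. With 1 array left out, 1032 to 1183 were called higher and 819 to 907 lower. Whether same-numbered arrays were handled together was not tested. Their deviations correlated at 0.04, and replicate 1 had the higher median signal in both groups. The fit with the replicate block called 1124 higher and 969 lower. Some of the 214 named genes were called and others only passed. Of the 214, 61 lost that status with the 6 arrays labelled LNCaP alone, 14 with the replicate block, 14 under median centring and 10 under quantile normalization. With only the 4 arrays compared 210 lost it, among them all 36 genes with the largest changes. In 2 genes the direction depended on the probe set: IKBKE was at -0.93 on the probe set brightest on the 4 arrays, and OVOL2 at 0.16 when probe sets were averaged. The cause was not tested.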

Other observations

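Probe sets without a gene symbol in the annotation made up 15.8% of all measured probe sets (4223). They were 25.2% of those called higher at 0.5 µM (293) and 10.3% of those called lower (104). Which transcripts they read was not examined.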
